A study of Mus musculus with 2 samples.

Results

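The bone regions of 2 mouse fracture sites were bordered by a band of soft tissue in which 256 spots were profiled by Visium spatial transcriptomics, 113 in the Control section and 143 in the Loaded section, of 3398 spots under tissue in both. A spot is a small disc of tissue that can hold several cells of different types, and its genes are counted as unique molecular identifiers (UMIs). A spot belonged to this rim when it held at least 500 UMIs and 250 genes, lay outside the convex hull drawn around the bone region spots that the study selected between the inner pins of the external fixator, and was within 250 µm of at least 1 of them. The rule used positions and depth, and no gene. Where a wall of the Control shaft bowed inwards, the hull enclosed its outer face and no rim spots were taken there.

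Both groups were female bone cell reporter (BCR) mice, in which fluorescent proteins mark bone-forming and bone-resorbing cells. They received a mid-diaphyseal femoral osteotomy held by an external fixator at 12 weeks of age and were killed at 17 weeks. The Loaded mouse received cyclic mechanical loading of the healing femur during the last weeks and the Control mouse received sham loading. There was 1 section per group, from 1 mouse each, and the spots of a section are not replicates of a condition, so no comparison below carries a p-value. All intervals cover counting error at 95% and not the difference between animals.

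The files held 19465 genes. Kept spots numbered 1898 in the Control section and 1431 in the Loaded section, and the bone regions held 131 and 146 of them. The rims summed to 723346 UMIs in Control and 682313 in Loaded, with a median of 5162 UMIs per spot (809 to 30497) and 4063 (526 to 16344). The spot filter removed no spot of the Control rim and 1 of the Loaded rim. Barcodes are grid positions of the assay and do not identify a sample. Of these, 557 occurred in both sections, and none was a rim spot in both.

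A long bone shaft is wrapped in periosteum, a fibrous sheath with fibroblasts outside and bone-forming precursors inside, on which tendons and muscle bellies insert. Skeletal muscle is built from slow fibres, which use the slow myosin heavy chain and oxidative metabolism, and from several kinds of fast fibre. Macrophages, vessels and nerves run in the connective tissue between muscle and bone. In a healing fracture the same outer layer borders the callus, the new bone that bridges the gap.

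Skeletal muscle genes were the largest marker group of the rim, with 25.2% of UMIs in Control (25.1% to 25.3%) and 16.8% in Loaded (16.8% to 16.9%) over the 33 genes of 3 muscle lists. The share varied widely among spots, with a median of 17.1% (0.571% to 43.9%) for Control spots and 15.3% (1.92% to 40.8%) for Loaded spots. At least 10% was reached in 79 of 113 Control spots and in 103 of 143 Loaded spots. Every rim spot held UMIs of Myh4, the myosin heavy chain of the fastest fibres, and of Ckm, the muscle creatine kinase. Muscle UMIs were not particular to the rim. At least 10% was also reached in 87 of 131 Control bone spots and in 72 of 146 Loaded bone spots. Spots inside the hull that were not bone had median muscle shares of 7.05% in Control and 5.87% in Loaded. How far spread of RNA between spots added to these shares was not tested. The bone regions themselves read 17.3% and 9.18% muscle genes, and tissue 250 to 500 µm away from bone read 35.0% and 22.8%, so the rim lay between them in both sections.

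**Figure D1:**
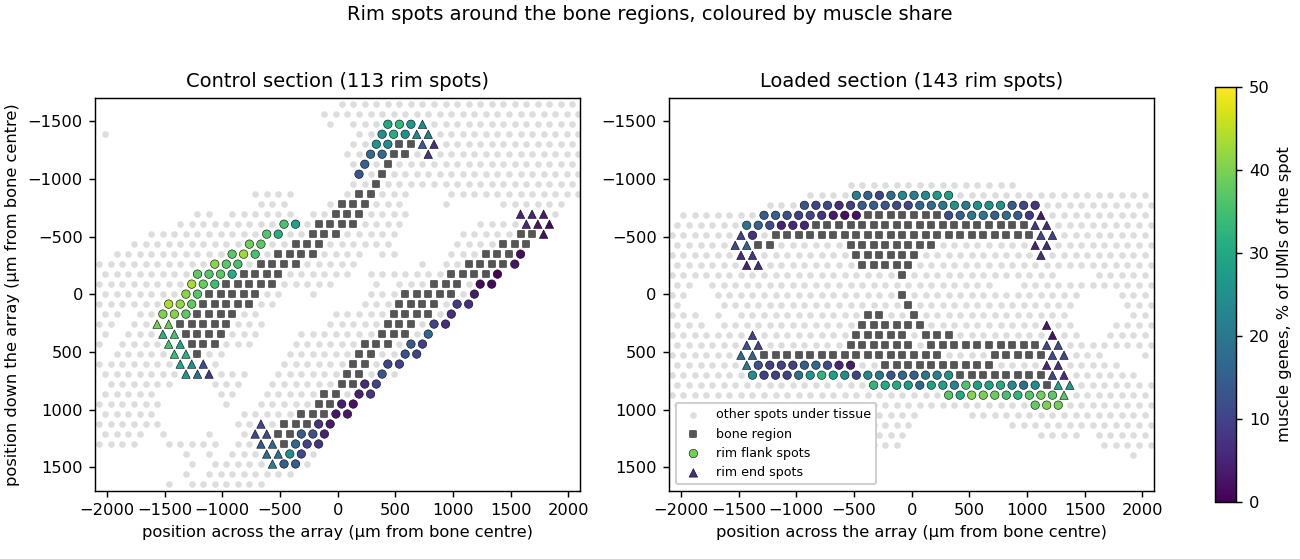
Positions of the rim spots (circles along the flanks, triangles at the ends of the shaft) around the bone regions (grey squares) in each section, in µm from the centre of the bone spots, with colour giving the share of UMIs from muscle genes. High shares were on 1 side of the shaft in Control and were found on both sides in Loaded.

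Muscle was unevenly placed around the shaft, as the map of the rim shows. Along the 2 flanks of the Control shaft the muscle share was 37.8% in 39 spots of side A and 8.38% in 39 spots of side B. In Loaded it was 13.7% in 54 spots of side A and 23.9% in 55 spots of side B. The sides are labels within a section and cannot be matched between the mice.

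The summed shares of fast and slow fibre genes were high on opposite sides, but not every fast fibre gene followed. Of the UMIs of the Control flanks, fast fibre genes made up 25.3% on side A and 2.91% on side B, and slow fibre genes 0.129% and 2.02%. In Loaded the fast fibre share was 5.77% on side A and 16.0% on side B, and the slow fibre share 2.25% and 0.111%. Myh7, the slow myosin heavy chain, read 3.17 and 78.5 UMIs per 10000 UMIs on Control sides A and B and 83.9 and 2.34 on Loaded sides A and B. Myh4 read 730.7 and 16.5 in Control and 34.0 and 462.3 in Loaded. Each section thus had a side rich in Myh7 that was poor in Myh4, and the other way round. Myh2, the myosin of fast oxidative fibres, was higher on the side rich in Myh7, at 7.86 and 30.1 in Control and 11.6 and 2.55 in Loaded. Myh1, the myosin of fibres between those of Myh2 and Myh4, read 50.7 and 10.8 in Control and 135.6 and 42.4 in Loaded, so it went with Myh4 in Control and with Myh7 in Loaded.

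Fibrous and bone genes were also present. Erythroid genes, which encode globins and other proteins of red cells, took 0.882% of rim UMIs in Control and 1.18% in Loaded, above the fibrous groups. On the flanks alone they took 0.546% and 0.498%, below the interstitial fibroblast genes there. Interstitial fibroblast genes took 0.744% of rim UMIs in Control and 0.872% in Loaded, tendon genes 0.277% and 0.30%, and genes of the periosteum and its fibrous layer 0.17% and 0.149%. Osteoblast genes took 1.34% and 2.52%, against 2.40% and 7.38% in the bone regions. This list includes the type I collagen genes Col1a1 and Col1a2, which tendon also uses. They had 2506 and 3698 UMIs on the Control flanks, against 37 of Bglap and 61 of Ibsp, so the share is not a measure of osteoblasts alone. Chondrocyte genes, 7 in the list, summed to 35 and 32 UMIs over the whole rims, so cartilage was hardly represented.

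The Control side that was rich in slow fibre genes was also the fibrous one. Its fibroblast share was 1.57% against 0.281% on the other flank, its tendon share 0.674% against 0.0430%, and its periosteum share 0.397% against 0.0356%. Thbs4, a matricellular protein of tendon and muscle attachments, read 42.3 UMIs per 10000 on side B and 2.89 on side A. In Loaded the flanks were closer, with fibroblast shares of 0.975% and 0.853% and tendon shares of 0.274% and 0.397%. Thbs4 read 11.2 and 24.2 there.

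The ends of the rim differed from its flanks in blood and marrow genes, and in Control also in osteoclast genes. Part of the end spots thus went against the label of soft tissue. Erythroid genes took 2.21% of UMIs in the 35 Control end spots against 0.546% in its 78 flank spots, and 6.15% in the 34 Loaded end spots against 0.498% in its 109 flank spots. Granulocyte genes took 0.164% against 0.0142% in Control and 0.868% against 0.0322% in Loaded. In Control, the osteoclast gene Acp5 read 14.7 UMIs per 10000 at the ends and 1.25 on the flanks, and Ctsk 17.8 and 4.80. Among osteoblast genes Ibsp read 7.05 and 1.06, but Col1a1 was lower at the ends, at 38.6 and 43.4. Single end spots reached 18.1% and 23.7% erythroid genes. The spaces inside the hull that were not bone, which were not rim, read 11.4% and 11.6% erythroid genes.

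**Figure D2:**
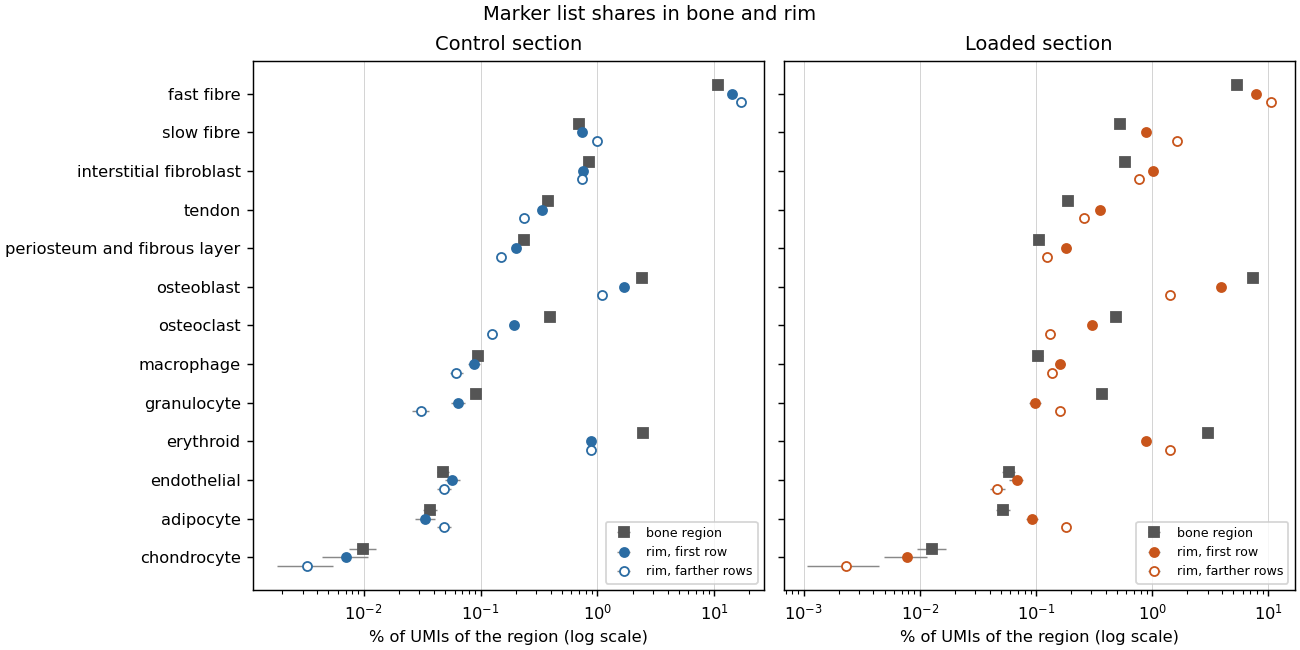
Share of UMIs taken by marker lists (log axis, percent) in the bone region (squares), in the first row of rim spots (filled circles) and in the farther rim rows (open circles), with exact 95% binomial intervals that cover counting error. Osteoblast and osteoclast shares stepped down from bone to the farther rows in both sections, and fast and slow fibre shares stepped up.

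Within the rim the levels changed over 1 spot spacing. The first row, 46 Control spots and 64 Loaded spots at 100 µm from a bone spot, held 1.70% and 3.93% osteoblast genes, and the farther rows, 67 and 79 spots, held 1.09% and 1.43%. Muscle genes held 22.6% of the first row and 27.0% of the farther rows in Control, and 13.6% and 19.3% in Loaded. Bglap, which encodes osteocalcin of mature osteoblasts, read 26.4 UMIs per 10000 in the Loaded bone region, 10.5 in the first row and 2.65 in the farther rows, against 2.26, 1.08 and 0.963 in Control. Col1a1, the main chain of bone and tendon collagen, read 207.9, 129.7 and 45.1 in Loaded and 74.5, 54.8 and 33.8 in Control. Both genes thus read clearly higher in the first row than in the farther rows in Loaded, while in Control Bglap hardly differed between them. Col1a1 is not particular to bone. How far these transcripts came from bone inside the spots, from fibrous tissue or from spread of RNA between spots was not tested.

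A few genes peaked in the rim of the Loaded section. Mrc1, the mannose receptor of tissue macrophages, read 0.733 UMIs per 10000 in the bone region, 1.68 in the first row, 1.48 in the farther rows and 0.875 at 250 to 500 µm. Ccl8, a chemokine that attracts monocytes, read 1.03, 2.73, 3.22 and 1.23 in the same order. Col3a1, the collagen of loose connective tissue, read 31.7, 57.0, 33.5 and 22.9. In Control the values for Col3a1 went down at each step, at 40.2, 31.4, 27.5 and 7.34, and Mrc1 and Ccl8 read at most 0.605 and 0.449 in any of the 4 zones.

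**Figure D3:**
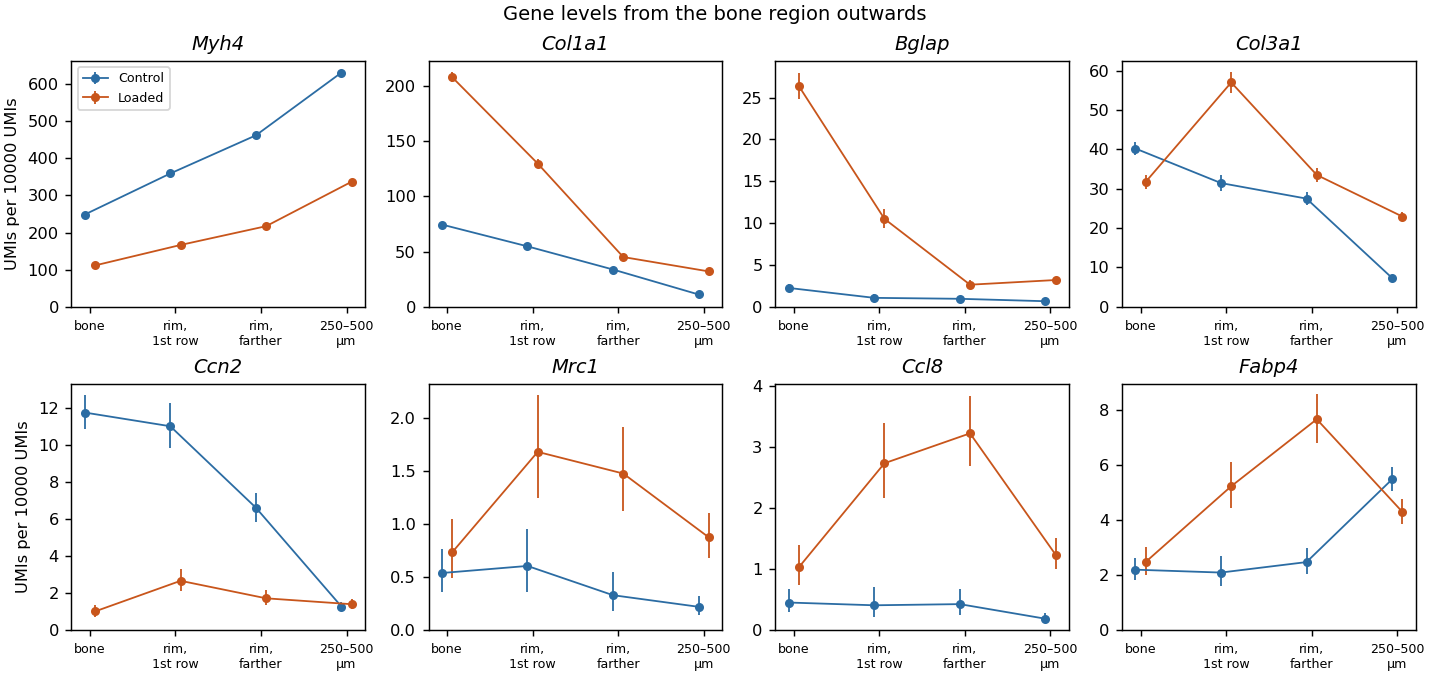
UMIs per 10000 UMIs of 8 genes in the bone region, the first row of the rim, its farther rows and the tissue 250 to 500 µm from bone, in Control (blue) and Loaded (orange), with exact 95% Poisson intervals for counting error. Mrc1, Ccl8, Col3a1 and Fabp4 were highest inside the Loaded rim, and Myh4 climbed outwards in both sections.

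Where the rim differed from the bone next to it was then described over all genes. Values were UMI sums divided by summed scran size factors, which correct for the depth of spots, and genes with at least 50 UMIs over both regions were counted. In Control, 42 of 4492 genes (0.935%) were at least 2-fold higher in the rim and 70 (1.56%) at least 2-fold lower. In Loaded, 174 of 4457 genes (3.90%) were higher and 203 (4.55%) lower. Of the 3891 genes counted in both, 7 were at least 2-fold higher and 26 at least 2-fold lower in the rims of both sections.

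The genes furthest above bone in both rims were mostly muscle genes. Ankrd2, a stretch-responsive protein of slow muscle, had log2 rim over bone of +1.47 in Control (111 against 34 UMIs) and +1.41 in Loaded (124 against 29). Ckm had +1.08 and +1.11, and Igfn1, a muscle protein of the Z-disc, +1.28 and +1.30. Mreg, which encodes melanoregulin, had +1.08 and +1.18. Retnla, a secreted product of alternatively activated macrophages and of fat tissue, had +1.43 (286 against 90 UMIs) and +1.12 (196 against 56).

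The genes furthest below bone belonged to bone matrix, blood and B cells. Igkc, the kappa light chain of antibodies, had −2.67 in Control (31 against 168 UMIs) and −1.30 in Loaded (110 against 168). The fibrillar collagen genes Col11a2 and Col11a1 had −1.53 and −1.32 in Control and −1.90 and −1.70 in Loaded. Hbb-bs, an adult beta globin, had −1.53 and −1.39. Cd79a, part of the B cell receptor, had −1.42 and −1.68.

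By list, 3 muscle lists had median log2 rim over bone of +0.53 in Control and +0.93 in Loaded over all 33 genes, with 1 and 15 genes at least 2-fold higher. Over all genes counted, 0.935% in Control and 3.90% in Loaded were higher by that much, and 1.56% and 4.55% lower. Osteoblast genes had −0.74 and −1.81, with 4 of 10 and 12 of 13 counted genes at least 2-fold lower. Fibroblast genes had −0.24 in Control and +0.74 in Loaded, with 0 of 12 and 3 of 11 at least 2-fold higher (Clec3b at +1.21, Dpt at +1.03 and Pi16 at +1.02). Macrophage genes had −0.26 and +0.48, with 2 of 6 at least 2-fold lower in the Control rim and 1 of 6 at least 2-fold higher in the Loaded rim. Tendon genes had −0.67 and +0.41, with 0 of 4 and 2 of 6 at least 2-fold higher.

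The second question was how the Loaded rim differed from the Control rim. Over 5015 genes with at least 50 UMIs in both rims together, 163 (3.25%) were at least 2-fold higher in Loaded and 181 (3.61%) at least 2-fold lower. The median log2 ratio of all genes was 0.00 and 50.2% were above 0. With library totals in place of scran factors every log2 ratio moved up by 0.20, and the counts became 323 higher and 89 lower. To see how even a difference was around the shaft, each rim was cut into 4 blocks by side and by position along the shaft. All 4 Loaded blocks lay above all 4 Control blocks for 113 genes (2.25%) and below them for 60 genes (1.20%). How many genes would lie so by chance was not tested, and blocks of a section are not replicates. Having all blocks apart was also a rule for naming genes below, so it is no separate support for them. In bulk sums over spots, fewer cells of a type and less RNA per cell cannot be told apart.

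**Figure D4:**
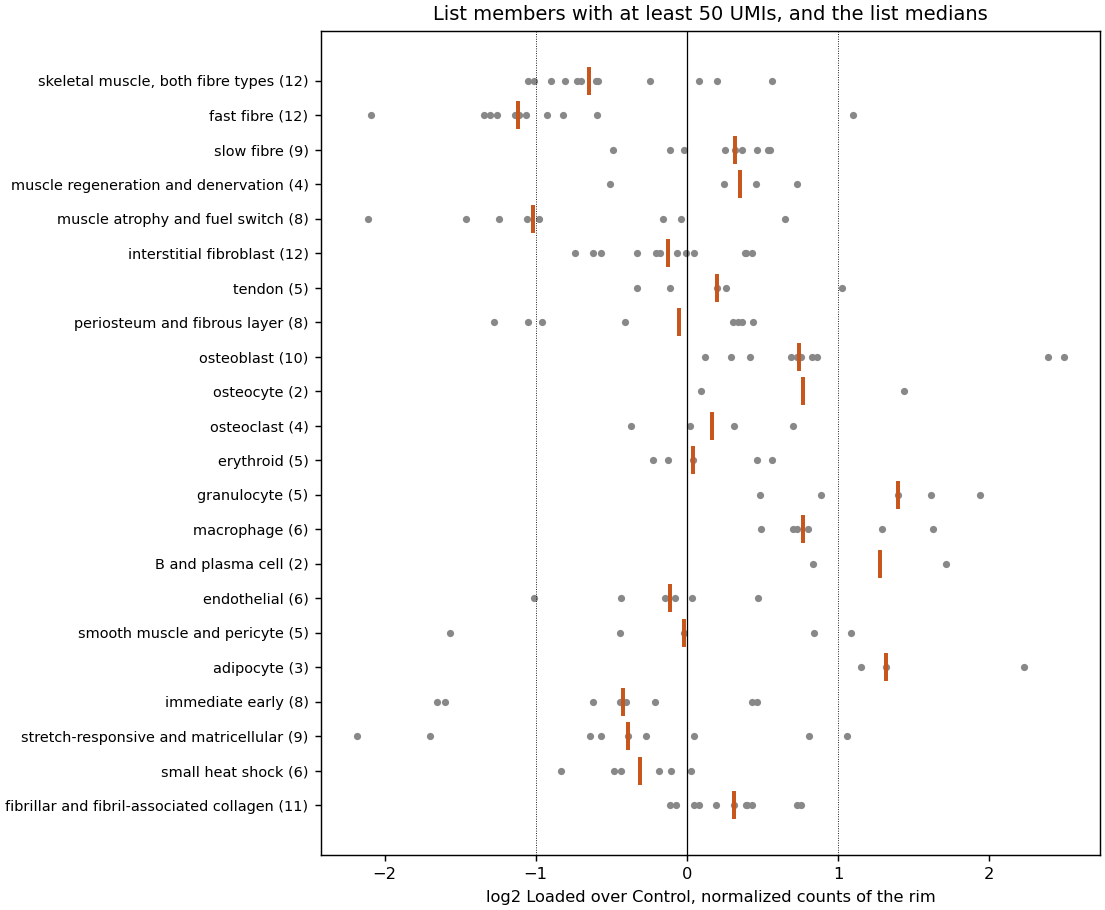
Log2 ratio of Loaded over Control in the rim for each member with at least 50 UMIs (grey points) of each list shown, with the list median as an orange bar. Dotted lines mark 2-fold. All osteoblast and macrophage members lay above 0, and fast fibre members except Myh1 below it.

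Macrophage genes were higher in the Loaded rim. All 6 that were counted lay above 0, with a median log2 of +0.77. Of these, Mrc1 (+1.63) and Cd68 (+1.29) were more than 2-fold higher, against 3.25% of all genes counted. The list took 0.0727% of UMIs in Control and 0.148% in Loaded. Its median was lowest, at +0.30, in spots below 10% muscle and highest, at +1.21, in spots of at least 10% muscle. When any 1 block was left out it stayed between +0.44 and +1.06. The Control flanks were uneven, and all 6 genes read higher on side B than on side A. There C1qa read 5.58 and 1.68 UMIs per 10000, and Mrc1 0.683 and 0.396.

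Mrc1 was counted at 32 UMIs in 23 Control spots and 107 UMIs in 54 Loaded spots. Its normalized counts per spot were 0.203, 0.357, 0.335 and 0.246 in the Control blocks A-low, A-high, B-low and B-high and 1.05, 0.789, 0.824 and 0.359 in the Loaded blocks in the same order. The lowest Loaded block was just above the highest Control block. Mrc1 was the only member of the list for which all blocks were apart. C1qa, a subunit of the first complement component made by macrophages, had 216 and 407 UMIs (+0.80, 0.56 to 1.05), and its Loaded block B-high at 1.53 was below the Control blocks B-low and B-high at 2.34 each. C1qb had +0.49, C1qc +0.70 and Csf1r, the growth factor receptor of macrophages, +0.73. When any 1 block was left out, C1qb ran from −0.03 to +0.67. Cd163 and Lyve1 had 14 and 18 and 4 and 4 UMIs and were not counted.

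Ccl8 had the highest ratio of the genes whose blocks were apart. It was counted at 30 UMIs in 18 Control spots and 205 UMIs in 68 Loaded spots, at log2 +2.66 (2.10 to 3.26). Its normalized counts per spot were 0.166, 0.357, 0.412 and 0.123 in the Control blocks and 2.24, 0.896, 1.92 and 0.620 in the Loaded blocks. Ccl8 lies at chr11:82115185-82116799 on the plus strand (GRCm38, GENCODE M21). Pf4, a chemokine of platelets that macrophages also make, had 93 and 338 UMIs (+1.75, 1.41 to 2.10) and lies at chr5:90772435-90773383 on the plus strand, with Control blocks at 0.451 to 1.18 and Loaded blocks at 1.99 to 3.08.

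The other genes highest in Loaded with all blocks apart had fewer UMIs. They were Slpi, an inhibitor of neutrophil proteases (10 and 47 UMIs, +2.12), Gclm, which takes part in glutathione synthesis (10 and 46, +2.09), Myo1f, a myosin of leukocytes (12 and 50, +1.95), Fgd3, which activates a small GTPase (12 and 47, +1.86), Pcdhga9, a protocadherin (11 and 41, +1.79), and Marcksl1, an actin-binding protein (12 and 42, +1.69). Slpi was also more abundant in the Loaded end spots, at 2.55 UMIs per 10000, than along its flanks, at 0.433.

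**Figure D5:**
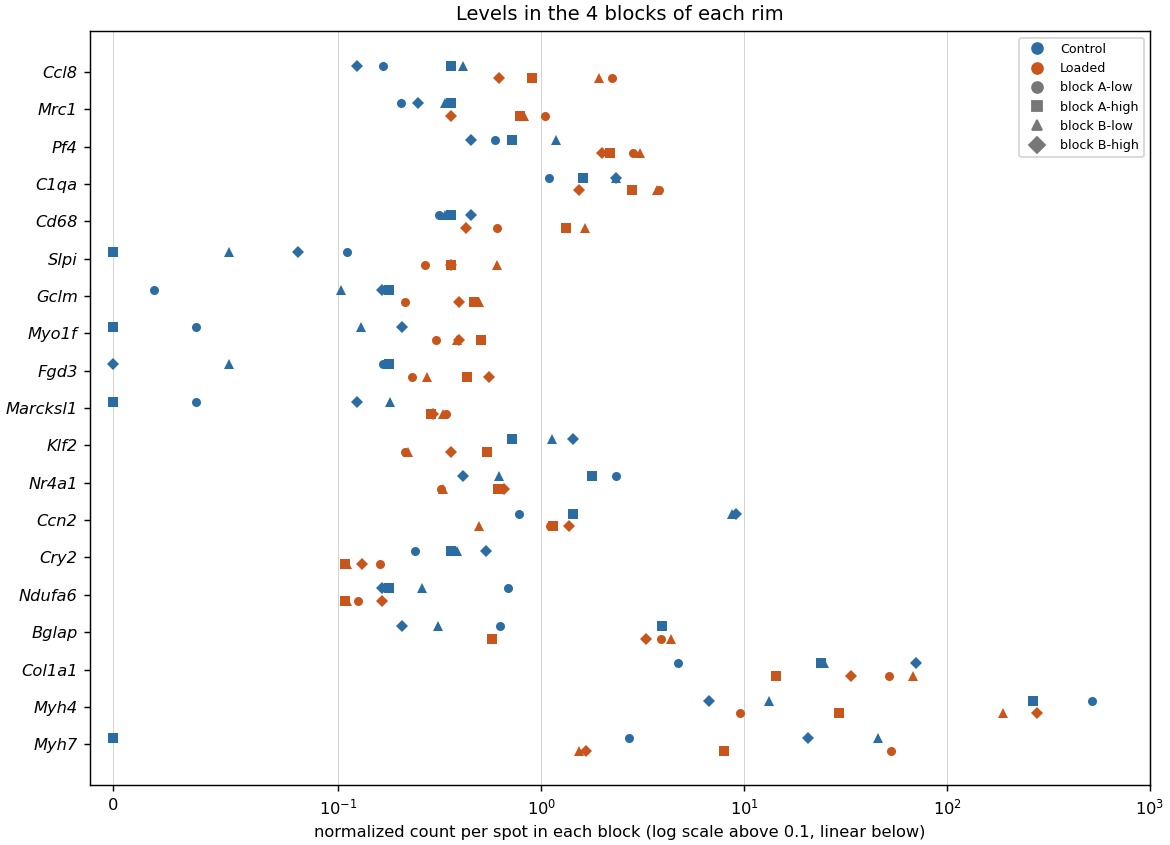
Normalized count per spot of genes named in the text, in each of the 4 blocks of the Control rim (blue) and the Loaded rim (orange), on an axis that is logarithmic above 0.1 and linear below. For Ccl8, Pf4, Mrc1 and Slpi the Loaded blocks lay above all Control blocks, for Klf2, Cry2 and Ndufa6 below them, and for Ccn2, Myh4 and Myh7 the blocks of Control ranged widely. Ccl8, Pf4, Slpi, Klf2, Cry2 and Ndufa6 were chosen among genes with all blocks apart, so their gap follows from that choice.

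Osteoblast genes were also higher in Loaded. All 10 that were counted lay above 0, with a median of +0.74 that ran from +0.35 to +1.47 when any 1 block was left out. Of these, 2 were at least 2-fold higher, against 3.25% of all genes counted. Bglap had 73 and 414 UMIs (+2.39, 2.03 to 2.77), with normalized counts of 0.627, 3.93, 0.309 and 0.205 in the Control blocks and 3.89, 0.574, 4.34 and 3.27 in the Loaded blocks. Its blocks overlapped, since Control A-high was as high as most Loaded blocks and Loaded A-high as low as most Control blocks. Of its Control UMIs, 36 lay in the 35 end spots and 37 on the flanks. Col11a2 had 20 and 122 UMIs (+2.50, 1.81 to 3.26). Col1a1 (+0.75) and Col1a2 (+0.73), the type I collagen chains, Spp1 (+0.83), the matrix protein osteopontin, and Phospho1 (+0.69), a phosphatase of mineralization, followed. Without Control block A-low, Col1a1 was at +0.039 and Col1a2 at +0.094. On the fibrous Control side B, Col1a1 read 90.5 UMIs per 10000, against 82.7 and 86.0 on the Loaded flanks. Dmp1, a gene of young osteocytes, had 14 and 41 UMIs (+1.44), and Fam20c, the only other counted gene of the osteocyte list, was at +0.09. The osteoclast genes Ctsk and Acp5 had +0.31 and −0.37, and 215 Control UMIs of Acp5 lay in end spots against 72 on the flanks. No osteoblast gene had all blocks apart, and the bone regions next to these rims differed in the same list, at 2.40% and 7.38% of UMIs.

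Muscle genes differed by fibre type and not in 1 direction. Of 12 fast fibre genes, 8 were at least 2-fold lower in Loaded and 1 at least 2-fold higher, with a median of −1.12. The shares over all genes counted were 3.61% and 3.25%. Myh4 had 30365 and 13327 UMIs (−1.30), Tnni2, the fast inhibitory troponin, −2.09, and Myh2 −1.34. Myh1 had 2632 and 6105 UMIs (+1.10). Slow fibre genes had a median of +0.32 over 9 genes and none reached 2-fold.

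These muscle values rested on single blocks. Myh4 had normalized counts of 520.4, 264, 13.3 and 6.73 in the Control blocks and 9.49, 29.5, 189 and 279 in the Loaded blocks, so the spread within each section was wider than the difference between them. Control block A-low held 396888 of the 723346 UMIs of its rim. Without it the fast fibre median turned to +1.14 and Myh4 to +1.68, and the median of the 12 genes of both fibre types went from −0.65 to +0.55. Among spots with a muscle share below 10%, 34 in Control and 40 in Loaded, the fast fibre median was +0.35 and Myh4 +1.05. Leaving out single blocks moved the slow fibre median from −2.06 to +1.51.

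Genes of muscle wasting and fuel use had a median of −1.02 over 8 counted genes. Of these, 4 were at least 2-fold lower, against 3.61% of all genes counted. Those at least 2-fold lower were Fbxo32 (102 and 40 UMIs, −1.46) and Trim63 (366 and 167, −1.24), ubiquitin ligases of muscle atrophy, Pdk4 (68 and 17, −2.11), a kinase that spares glucose, and Foxo1 (156 and 81, −1.06), a transcription factor that controls them. Foxo1 had all blocks apart, with Control blocks at 1.00 to 1.79 normalized counts and Loaded blocks at 0.385 to 0.784. The list moved to +0.18 and Trim63 to +0.32 without Control block A-low. Along the Control flanks, Fbxo32 read 2.10 UMIs per 10000 on side A and 0.361 on side B. Trim63 read 7.49 and 2.09 and Pdk4 1.19 and 0.522, and Foxo1 went the other way at 1.92 and 2.37. Genes of muscle regeneration and denervation were sparse, and 4 of 10 were counted, with a median of +0.35. Myh3, the embryonic myosin, had 108 and 82 UMIs (−0.51), and the other 3 counted genes lay above 0. When single blocks were left out, Myh3 ran from −4.07 to +0.45. Of its Control UMIs, 94 lay on flank side B.

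Of 8 counted immediate early genes, which respond fast to mechanical or other stimuli, 2 were at least 2-fold lower in the Loaded rim and none at least 2-fold higher. Over all genes counted, 3.61% were lower and 3.25% higher by that much. Per the study's methods the mice were killed hours after the final loading session, so earlier responses to it were not sampled. Klf2, a transcription factor induced by flow in endothelium, had 122 and 42 UMIs (−1.65, −2.19 to −1.13), with Control blocks at 0.715 to 1.44 and Loaded blocks at 0.213 to 0.538. It lies at chr8:72319033-72321656 on the plus strand (GRCm38). Its log2 ratio ran from −2.68 to −1.17 over the settings tried. Klf2 was among the genes picked for all blocks apart, so leaving out single blocks could not reverse its sign. Nr4a1, an immediate early gene, had 171 and 61 UMIs (−1.60), and −0.48 without Control block A-low. The other 6 counted genes of the immediate early list, among them Fos (−0.40), Egr1 (−0.21), Jun (−0.45) and Junb (+0.43), stayed within 2-fold, and the list median was −0.42.

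Ccn2, a matricellular growth factor induced by stretch, had 610 and 145 UMIs (−2.19, −2.46 to −1.92). Its normalized counts were 0.775, 1.43, 8.70 and 9.11 in the Control blocks and 1.10, 1.15, 0.495 and 1.37 in the Loaded blocks. The high values were thus those of the fibrous side B of Control, at 20.7 UMIs per 10000 of its flank against 0.883 on side A, and Control side A overlapped with Loaded. Xirp1, a repair protein of muscle, was also lower (69 and 23 UMIs, −1.70), and Piezo1, a stretch-gated channel, higher (24 and 54, +1.06). Along the Control flanks, Xirp1 read 1.61 UMIs per 10000 on side B and 0.487 on side A. The median of the 9 stretch-responsive and matricellular genes was −0.39.

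The 8 genes lowest in Loaded with all blocks apart held 1 list member, Klf2. Beside it they were Ndufa6, a subunit of respiratory complex I (52 and 17 UMIs, −1.73), Kdm7a, a histone demethylase (48 and 16, −1.70), Epm2aip1 (59 and 21, −1.60), Cry2, a repressor of the circadian clock (43 and 18, −1.37), Atg2b, an autophagy protein (35 and 17, −1.15), Srp68, part of the signal recognition particle (131 and 65, −1.12), and Usp4, a deubiquitinase (50 and 25, −1.11). Some of these differences were smaller in other selections of spots. Among spots below 10% muscle, Ndufa6 was at −0.09 and Srp68 at −0.41, and without Control block A-low they were at −0.77 and −0.42. Atg2b, Cry2 and Usp4 also came to less than 2-fold under at least 1 setting, at −0.96, −0.97 and −0.81. Epm2aip1, Kdm7a and Klf2 stayed below −1, at most −1.32, −1.01 and −1.17. Control blocks of Cry2 were at 0.240 to 0.533 normalized counts and Loaded blocks at 0.108 to 0.160.

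Myelin and fat genes varied widely between blocks of the same section. Mbp, a structural protein of myelin (103 and 32 UMIs, −1.80), and Pmp22, a membrane protein of peripheral myelin that other cells also make (198 and 104, −1.04), were at least 2-fold lower in Loaded. Mbp had normalized counts of 0.0738 and 0.179 in Control blocks A-low and A-high and 1.60 and 1.48 in B-low and B-high, against 0 to 0.466 in the Loaded blocks. Its high values thus lay on Control side B, and Control side A overlapped with Loaded. The fat genes Cfd (+2.23), Fabp4 (+1.32) and Adipoq (+1.15) were higher in Loaded, and Cfd reached 13.2 normalized counts in Control block A-high and 13.4 in Loaded block B-low with at most 2.38 in the other blocks.

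Of the genes of marrow cells, 3 of 5 counted granulocyte genes were at least 2-fold higher in Loaded, against 3.25% of all genes counted. The median of the 5 was +1.40, with S100a8 at +1.94, Camp at +1.62 and Ngp at +1.40. Camp, an antimicrobial peptide of neutrophils, reached 8.62 normalized counts in Loaded block B-high and 0.924 to 2.62 in the other Loaded blocks, against 0.492 to 3.40 in Control. Without Loaded block B-high the median was −0.10. S100a8 had 34 UMIs at the ends and 6 along the flanks in Control and 133 and 33 in Loaded, and its flank levels were 0.104 and 0.55 UMIs per 10000. Igkc had 31 and 110 UMIs (+1.71), of which 9 and 68 lay on the flanks. Erythroid genes had a median of +0.04.

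The list medians of fibroblast, tendon, vessel and collagen genes lay between −0.12 and +0.31. Single members of the tendon, periosteum and vessel lists were at least 2-fold apart. The fibroblast median was −0.12 over 12 genes, none 2-fold apart, with Col3a1 at +0.39, Clec3b at −0.20 and Pi16, a gene of perivascular fibroblasts, at −0.74. In the periosteum list, median −0.05, Aspn (−1.28) and Angptl1 (−1.05) were lower, and both were highest in the Control side B blocks, where Angptl1 read 3.68 and 5.46 normalized counts against 0.406 to 1.33 elsewhere. Tnmd, a marker of tendon cells, had 20 and 44 UMIs (+1.02) and the tendon median was +0.20. The endothelial median was −0.11, with Cldn5, a tight junction protein of vessels, at −1.01. In the smooth muscle and pericyte list, median −0.02, Myh11 had −1.57 and Pdgfrb +1.09. Along the Control flanks, Cldn5 read 1.73 UMIs per 10000 on side B and 0.183 on side A, and Myh11 1.69 and 0.152. The 6 small heat shock genes had a median of −0.31 and the 11 collagen genes +0.31, with none 2-fold apart in either. Over all genes counted, 3.25% were at least 2-fold higher and 3.61% lower, so short lists can hold none at that share.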

How the data were processed

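Per the labels and the study's methods, the authors made the deposited UMI counts per spot and gene from formalin-fixed sections with a mouse probe set and SpaceRanger 2.0.0 on mm10. Bone region barcodes came from the study's supplement. Here, spots were placed on the array's hexagonal grid with 100 µm between neighbours. Size factors came from scran 1.30.0 (R 4.3.3), and edgeR 4.0.16 gave TMM factors as an alternative. Ratios are log2 of UMI sums over summed size factors with exact conditional binomial intervals, and a sum of 0 was set to 3 UMIs. Genes with at least 50 UMIs over the regions compared were counted, and called means at least 2-fold. With 1 section per group no test was possible.

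The members and the 24 lists were chosen with earlier results of these data known. Any list member could be named, with the 2 most abundant of each list, the 8 highest and 8 lowest Loaded over Control with blocks apart, and the 5 highest and 5 lowest rim over bone in both sections. The shaft axis was to be the first principal component of the bone spots, which did not follow the walls, so after seeing the positions it was set as the direction that splits the bone spots best into 2 walls, at 40° and 2° from the array columns in Control and Loaded. Of the gene identifiers, 19451 were found in GENCODE M21. The ratio code was tested on simulated data. Some list members, and the list values that rest on them, are not reported here. Not used here are the listed genes Tpm3, Myod1, Hba-a1, Ahsp and Xirp2.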

Additional observations from a re-analysis of the deposited data

Results flagged for a closer look

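The rim and the bone region stood in opposite order in the 2 sections for 4 of the named genes, each with intervals on opposite sides of 0, and in every case the difference was not tested. Ccn2 was lower in the rim than in bone in Control (log2 −0.34) and higher in Loaded (+1.14), 1.48 apart. Comp, a tendon and cartilage matrix protein, had −0.94 and +0.52, 1.46 apart. Prelp, a matrix proteoglycan, had −0.36 and +0.56, 0.917 apart. Col3a1 had −0.33 and +0.52, 0.841 apart. All 4 were lower in the bone region of Loaded than of Control in UMIs per 10000, at 1.00 against 11.8 for Ccn2, 5.43 against 12.0 for Comp, 1.74 against 5.90 for Prelp and 31.7 against 40.2 for Col3a1.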

How the results depend on the processing

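No paired analysis was possible because each group had 1 section. Blocks of a section are not replicates, and low UMI counts limit the single genes. Except where a setting changes which spots or genes enter, the cause of a change was not tested. In the Loaded to Control comparison, library totals gave 323 genes higher and 89 lower, a minimum of 20 UMIs gave 513 and 418 of 8521 genes, and a minimum of 100 UMIs gave 53 and 95 of 2495, against 163 and 181 of 5015. The count of higher genes was 72 of 2184 for a rim of 150 µm, 260 of 6856 for 350 µm and 93 of 1386 in spots below 10% muscle. Without single blocks it ran from 118 to 263 and the count of lower genes from 173 to 247.

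Medians are given in full for 5 lists, chosen after the values under the alternatives were seen. The median of genes of both fibre types was −0.45 with library totals, −0.28 with equal weight for every spot, −0.54 on the flanks, −0.91 at 150 µm, −0.74 at 350 µm, −0.76 in spots of at least 10% muscle and 0.30 below 10%. The fast fibre median was −0.92, −0.52, −1.04 and −1.19 under the first 4 of these settings, −1.20 in spots of at least 10% muscle, and reversed to 0.35 below 10%. The slow fibre median was 0.51 with library totals, −0.079 with equal weight, 0.038 at 150 µm, 0.43 at 350 µm, 0.43 at or above 10% muscle and −0.0062 below. The osteoblast median was 0.94 with library totals, 0.29 with equal weight, 0.99 on the flanks, 0.95 at 150 µm, 0.57 at 350 µm, 0.82 at or above 10% muscle and 0.92 below. The macrophage median was 1.21 at or above 10% muscle and 0.30 below. Without single blocks the medians ran from −0.94 to 0.55 for both fibre types, from −1.57 to 1.14 for fast fibre, from −2.06 to 1.51 for slow fibre, from 0.35 to 1.47 for osteoblast and from 0.44 to 1.06 for macrophage genes.

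Among log2 ratios of Loaded over Control, Myh4 reversed to 1.05 below 10% muscle. Mreg, at least 2-fold lower in Loaded over the whole rim, reversed to 0.10 there. Without Control block A-low, Myh4 was 1.68, Mreg 0.049, Trim63 0.32, the fast fibre median 1.14 and the atrophy median 0.18. Without Loaded block B-high the granulocyte median was −0.10. Over all blocks left out in turn the other extremes were −2.40 for Myh4, −1.86 for Trim63, −1.57 for Mreg, −1.15 for the atrophy median and 2.15 for the granulocyte median. Other medians also moved without single blocks, from 0.62 to 3.82 for adipocyte, from −1.02 to 0.13 for stretch-responsive, from −0.55 to 1.59 for tendon and from −0.63 to 0.30 for fibroblast genes.

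As the mean over spots, the muscle share was 20.1% in Control and 17.5% in Loaded and the osteoblast share 1.85% and 2.45%. At 150 µm these shares were 22.6%, 13.6%, 1.70% and 3.93%, and at 350 µm 28.7%, 19.4%, 1.03% and 1.89%. The Loaded muscle share was 17.8% on the flanks. Without single blocks the Control rim held 10.4% to 30.2% muscle and 0.789% to 2.59% osteoblast genes, and the Loaded rim 13.8% to 20.6% and 1.97% to 2.92%.

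For rim over bone in Control, the genes higher and lower numbered 16 and 121 with library totals, 19 and 42 at 150 µm, 173 and 319 at 20 UMIs and 23 and 22 at 100 UMIs, and 124 were lower on the flanks. In Loaded they numbered 413 and 515 at 20 UMIs and 87 and 89 at 100 UMIs, and 50 were higher at 150 µm. The first principal component was the planned shaft axis, and the axis used for the results above was set after seeing the positions. With the planned axis, 96 and 66 genes had all blocks apart in place of 113 and 60. The Loaded end erythroid share was then 4.82% in place of 6.15%.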
